A study of Mus musculus with 6 samples.

Results

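Cirbp and Rbm3 are the cold-inducible RNA-binding proteins of the mouse, and their transcripts were followed in the aorta of mice with and without miRNA-26b. Both were found in the deposited table of read counts by their gene symbols, which gave 2 of 55341 genes, and both were among the 16017 genes that passed the filter on low counts. They were chosen from this same comparison, on their levels in the 6 libraries and on the difference between the genotypes, so the values of both genes are a description and carry no test. The vessels came from 3 miRNA-26b-/- mice, labelled KO miRNA26B (libraries M2626, M2627 and M2628), and from 3 miRNA-26b+/+ mice, labelled naive (M2629, M2630 and M2631), with 1 library per mouse. All 6 mice were 8 weeks old, were fed chow, received no treatment that the labels name, and are listed under the strain C57BL/6NCrl. The miRNA-26b-/- allele was made in R1/E (129/Sv) embryonic stem cells by placing loxP sites around the miRNA inside an intron of Ctdsp1. It was then deleted by CreERT2 after tamoxifen, and the CreERT2 gene was bred out. The study describes the first strains as a mix of 129/Sv and C57BL/6, and its methods place all mice on C57BL/6. Any 129/Sv segments left in the mice were not examined.

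The tissue is named as endothelial cells of the aorta in the labels and as explanted aortic arch and thoracic aorta in the methods of the study. Markers of all layers of the vessel wall were counted. The 8 smooth muscle markers summed to between 32944 and 44230 CPM (counts scaled to a common library total after TMM normalization) in the 6 libraries, and the 8 endothelial markers to between 472 and 1792 CPM. No gene of the smooth muscle, endothelial, fibroblast or macrophage lists was at 0 in all libraries. The libraries held between 25706728 and 33345037 counts. The targeted Mir26b had 0 counts in 5 libraries and 20 counts in M2630, so the genotypes could not be checked by it, as mature miRNAs escape these libraries.

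Cirbp and Rbm3 each consist of an RNA recognition motif followed by a tail rich in glycine and arginine. Their transcripts are known to accumulate when cells or tissues are cooled by a few degrees, and to become rarer on warming, opposite to the transcripts of the heat shock chaperones. Cirbp binds and stabilizes a set of transcripts, among them that of the circadian gene Clock, and is released from damaged cells as a ligand of Tlr4. Rbm3 is known for promoting translation and for protecting neurons during hypothermia. Cold-dependent splicing through the Clk kinases and their SR protein substrates governs the level of both genes.

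In the GENCODE annotation of GRCm38, Cirbp (ENSMUSG00000045193) spans positions 80165985 to 80172786 of chromosome 10, forward strand. It has 7 annotated transcripts, of which 2 are protein-coding, 1 is a target of nonsense-mediated decay and 4 retain an intron. Rbm3 (ENSMUSG00000031167) lies on the reverse strand of chromosome X from 8138975 to 8145880, with 11 transcripts, of which 6 are protein-coding. The translated principal transcripts give proteins of 172 residues for Cirbp and 154 residues for Rbm3, with 62.5% identical positions in the alignment. Over the first 90 residues of Cirbp, which hold the RNA recognition motif, 72.2% of the positions were identical, against 52.3% of the remaining ones. After residue 90, glycine made up 31.7% of Cirbp and 32.8% of Rbm3.

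A promoter window of Cirbp holds the letters of the element through which mild cold is known to act on this gene, and its sequence is shown to place them. The stretch is chr10:80167589-80167777 on the forward strand of GRCm38.p6, as listed by RefSeq, and ends at the base before the principal transcript begins. Capitals mark the mild cold response element (TCCCCGCC), GC boxes (GGGCGG) and CCAAT boxes (CCAAT) on either strand, which do not overlap each other here.
Cirbp promoter: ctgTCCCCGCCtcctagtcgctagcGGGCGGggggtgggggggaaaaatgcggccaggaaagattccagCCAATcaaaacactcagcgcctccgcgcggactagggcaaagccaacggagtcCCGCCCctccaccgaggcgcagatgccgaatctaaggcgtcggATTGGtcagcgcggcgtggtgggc

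The mild cold response element began 247 bases before the start site that RefSeq lists at 80167839. A further GC box, 65 to 60 bases before this start site, runs past the printed end and is not marked. The other Cirbp window, for the start site at 80168171, held 4 GC boxes but neither this element nor a CCAAT box. Among the 32851 promoter windows of the same table, 5.38% held these letters, 35.66% held a GC box and 37.41% a CCAAT box. Neither orientation of the heat shock element core (GAANNTTC or TTCNNGAA) was present in the 2 Cirbp windows of the table, against 7.86% and 8.52% of all windows. These matches are letters in a window and not measured binding. For Rbm3 the table gave no window.

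The deleted miRNA is shown because its seed, in capitals (bases 2 to 8), can be looked up in the transcripts of both genes. The seed of miR-26b-5p, on chromosome 1 from 74394324 to 74394344 (forward strand, GRCm38.p6, RefSeq), is the same as that of miR-26a-5p, which these mice keep. The matching letters in the 3′ end of the longest Rbm3 transcript are in capitals in the fourth line, chrX:8139380-8139386 on the reverse strand.
miR-26b-5p: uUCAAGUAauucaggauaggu
miR-26a-5p: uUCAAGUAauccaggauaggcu
miR-26b-3p: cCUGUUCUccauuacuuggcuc
Rbm3 site: cactctccaagTACTTGAgtccatattgt

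Cirbp had none of the 4 forms of the miR-26b-5p site in its longest annotated 3′ UTR of 657 bases: no 8mer (TACTTGAA), 7mer-m8 (TACTTGA), 7mer-A1 (ACTTGAA) or 6mer (ACTTGA). Rbm3 had 1 site of the 7mer-m8 form, at position 1844 of the 2252 bases of the 3′ UTR of Rbm3-201, and a separate 6mer at position 224. The 7mer-m8 site was in the 3′ UTR of 1 of the Rbm3 transcripts. Over all genes with an annotated 3′ UTR, 9.96% held a 7mer-m8 site and 4.30% an 8mer site. Such matches are a description of the sequence, and reads per exon were not analysed here.

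Cirbp was higher in the aorta of every miRNA-26b-/- mouse than in that of any miRNA-26b+/+ mouse. Its level was 30.9 CPM in M2626, 48.3 CPM in M2627 and 31.2 CPM in M2628, against 16.3 CPM in M2629, 18.1 CPM in M2630 and 18.7 CPM in M2631. These values rest on 792, 1621 and 881 counts in miRNA-26b-/- and on 499, 497 and 566 counts in miRNA-26b+/+ mice. M2627 stood above the other miRNA-26b-/- libraries, and the miRNA-26b+/+ libraries lay close together. The mean was 36.8 ± 9.93 CPM in the miRNA-26b-/- and 17.7 ± 1.27 CPM in the miRNA-26b+/+ mice (SD, n = 3 each). The log2 fold change from the fit over all genes was 1.06 with a standard error of 0.268, a fold change of 2.08 with 1.73 to 2.51 covering 1 standard error on each side. Without M2627 the log2 fold change was 0.81. As these are bulk samples, more cells that express a gene and more RNA per cell cannot be told apart.

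Rbm3 was also higher in every miRNA-26b-/- library, by a smaller margin. Its level was 37.6 CPM in M2626, 36.3 CPM in M2627 and 33.0 CPM in M2628, against 26.6 CPM in M2629, 28.6 CPM in M2630 and 19.1 CPM in M2631. The counts behind these values were 963, 1219 and 931 in miRNA-26b-/- and 815, 785 and 577 in miRNA-26b+/+ mice. Here the miRNA-26b-/- libraries lay close together, and M2631 stood below the other miRNA-26b+/+ libraries. The mean was 35.6 ± 2.38 CPM against 24.7 ± 5.01 CPM (SD, 3 mice each), which gave a log2 fold change of 0.53 with a standard error of 0.239 and a fold change of 1.44. Without M2631 the log2 fold change was 0.36.

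The gap between the groups was wider for Cirbp than for Rbm3. The lowest miRNA-26b-/- library exceeded the highest miRNA-26b+/+ library 1.65-fold for Cirbp and 1.15-fold for Rbm3. Within a group, the highest and lowest library of Cirbp differed 1.56-fold in miRNA-26b-/- and 1.15-fold in miRNA-26b+/+ mice, whereas for Rbm3 they differed 1.14-fold in miRNA-26b-/- mice and more widely in miRNA-26b+/+ mice, between the 19.1 CPM of M2631 and the 28.6 CPM of M2630. The half-width of the exact Poisson 95% interval ran from 4.90% to 8.90% of the Cirbp value and from 5.66% to 8.25% of the Rbm3 value. These intervals cover counting error only. For Cirbp in miRNA-26b+/+ mice the intervals of the lowest and highest library overlapped, reaching up to 17.8 CPM in M2629 and down to 17.2 CPM in M2631. For Cirbp in miRNA-26b-/- mice and for Rbm3 in miRNA-26b+/+ mice they were well apart. For Rbm3 in miRNA-26b-/- mice they only just did not overlap. Among the 16017 genes tested, 5.65% lay higher in miRNA-26b-/- mice without any overlap of the groups, and 5.88% lay lower without overlap. Both genes belong to the higher ones because they were picked by this contrast, and nothing is read from it.

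**Figure D1:**
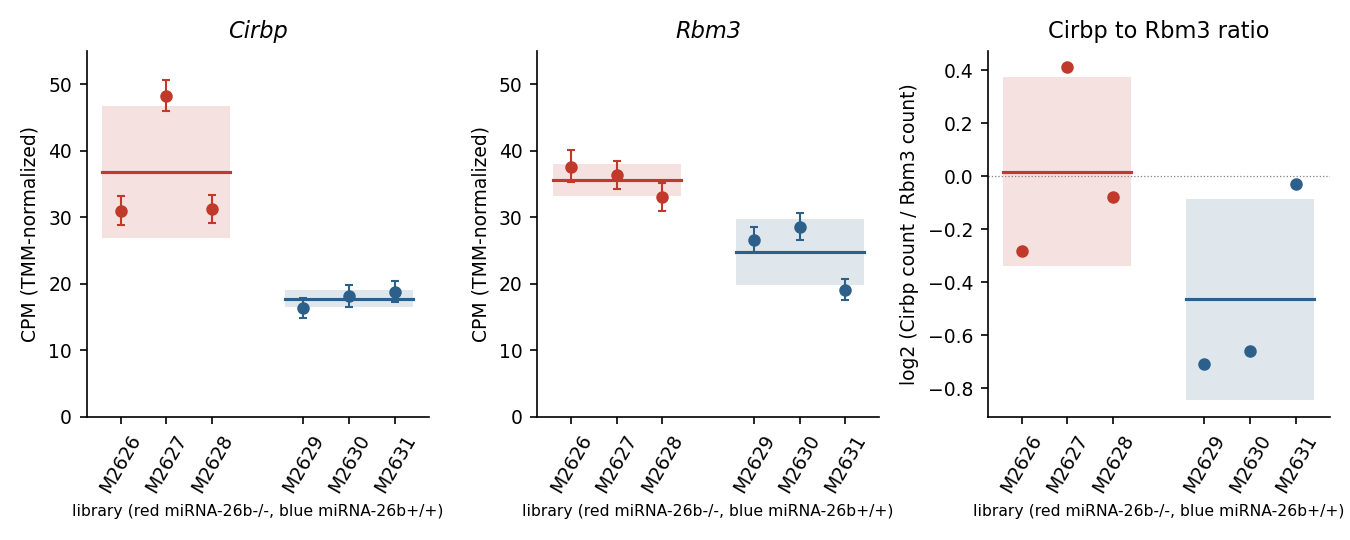
TMM-normalized CPM of Cirbp and Rbm3 and the log2 ratio of their counts in each library, with miRNA-26b-/- in red and miRNA-26b+/+ in blue. Points with bars are libraries with exact Poisson 95% intervals (none for the ratio), lines are group means and shaded bands are ± 1 SD over 3 mice. For both genes all red points lie above all blue points, while the ratios of the groups overlap.

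The 2 genes did not follow each other within the groups. The log2 ratio of Cirbp to Rbm3 counts, which no library scaling changes, was -0.28 in M2626, 0.41 in M2627 and -0.08 in M2628, against -0.71 in M2629, -0.66 in M2630 and -0.03 in M2631. M2627 was the only library with more Cirbp than Rbm3 counts, and M2631 was higher than both M2626 and M2628. The mean ratio was higher by 0.48 in miRNA-26b-/- mice (0.02 ± 0.36 against -0.46 ± 0.38, SD of log2 ratios, n = 3 each), a difference close to these SDs, and the groups overlapped. Without M2627 the difference was 0.28, and without M2631 it was 0.70. Among the miRNA-26b-/- libraries the highest Cirbp level was in M2627, where Rbm3 was in the middle. Among the miRNA-26b+/+ libraries M2631 had the highest Cirbp level and the lowest Rbm3 level.

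Which gene was more abundant depended on the transcript length taken. Per kilobase of all annotated exons (2604 bases for Cirbp and 4698 for Rbm3), the level was 14.1 CPM per kb for Cirbp and 7.58 CPM per kb for Rbm3 in miRNA-26b-/- mice, and 6.79 and 5.26 CPM per kb in miRNA-26b+/+ mice. Per kilobase of the principal transcripts, Cirbp-202 (1321 bases) had 27.9 and 13.4 CPM per kb in the same groups. Rbm3 had 12.8 and 8.86 CPM per kb with Rbm3-201 (2792 bases), and 30.9 and 21.5 CPM per kb with Rbm3-204 (1152 bases). The counts do not say which Rbm3 transcript was present, so no order of the levels is given. On the scale of all exons, Cirbp was above 72.4% and Rbm3 above 60.5% of the genes tested.

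Reads of Rbm3 are less certain than those of Cirbp. Of the 1272 stretches of 50 bases in Cirbp-202, 0 occur in a transcript of another gene. In Rbm3-201, 14.8% of the 2743 stretches are shared with 8 other genes, foremost the pseudogene Rbm3-ps, and in Rbm3-204 the share is 35.99%. Rbm3-ps itself had 15, 12 and 12 counts in miRNA-26b-/- and 10, 6 and 7 counts in miRNA-26b+/+ libraries, far fewer than Rbm3. Reads that map to several places were not counted, which lowers the Rbm3 counts by an amount not known here.

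Rbm3 also overlaps the antisense gene Rbm3os (ENSMUSG00000055188, chromosome X from 8145429 to 8147964, forward strand) over 94 exonic bases. Rbm3os had 71, 14 and 37 counts in M2626, M2627 and M2628 and 0 counts in each miRNA-26b+/+ library. Its level was 2.77, 0.417 and 1.31 CPM in M2626, M2627 and M2628. The mean of these was 14.7-fold a floor of 3 counts per library (0.102 CPM) set in place of the zeros. Rbm3os passed the filter on low counts only through M2626 and M2628 and could only come out higher. Its adjusted p was 0.736 in edgeR's quasi-likelihood test. Without M2626 the mean was 8.48-fold this floor. The counting did not use strand, and a read over both genes was counted for each, so reads of Rbm3 and Rbm3os cannot be told apart there. If every Rbm3os count were also a count of Rbm3, it would make up 7.37%, 1.15% and 3.97% of the Rbm3 counts in M2626, M2627 and M2628. Taking them off left 34.8, 35.9 and 31.7 CPM of Rbm3, still above the 28.6 CPM of the highest miRNA-26b+/+ library. Cirbp overlapped no other annotated gene.

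**Figure D2:**
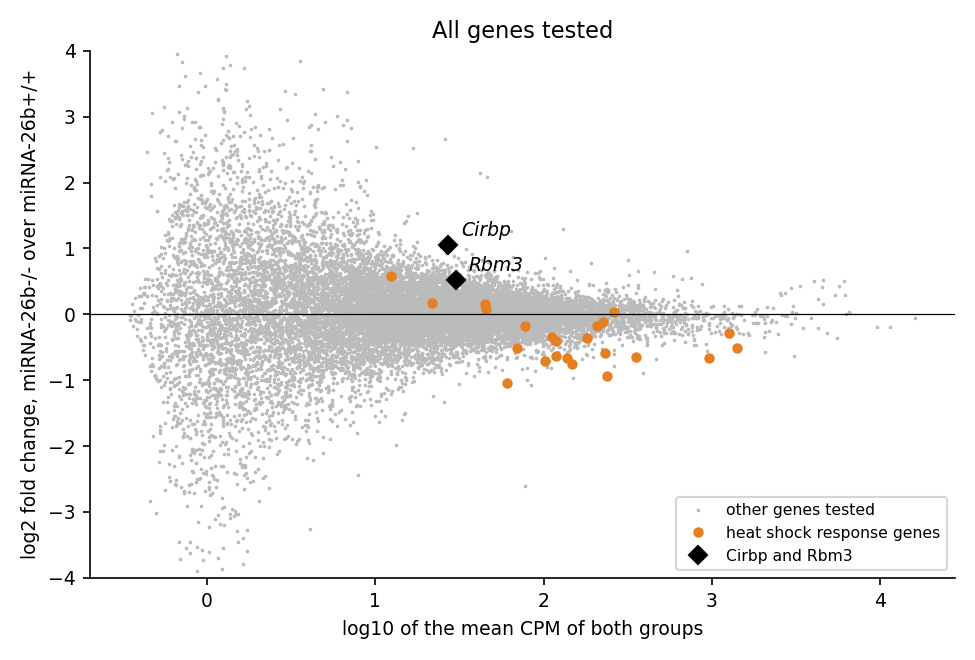
Log2 fold change of miRNA-26b-/- over miRNA-26b+/+ (vertical) against the log10 of the mean CPM of both groups (horizontal) for the genes tested, with Cirbp and Rbm3 as black diamonds and the heat shock response genes in orange. A total of 184 genes beyond 4 on the vertical axis are not drawn. Cirbp lies at 1.06 and Rbm3 at 0.53, and most orange points lie below 0.

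The levels of their sequence relatives were compared next. Closest to both proteins after each other were Gm7324, which had too few counts to be tested, and Rbmx and Rbmxl1, nuclear RNA-binding proteins with the same build and the same alignment score as Gm7324. Rbmx shared 63.5% of 85 aligned residues with Cirbp. Rbmx had 15.8 ± 3.32 CPM in the miRNA-26b-/- and 12.1 ± 3.57 CPM in the miRNA-26b+/+ mice (log2 fold change 0.39, standard error 0.348), and Rbmxl1 6.22 ± 0.748 against 5.82 ± 0.937 CPM (log2 fold change 0.10, standard error 0.470). The groups overlapped for both. In all, 9 genes among the 10 nearest relatives of each did not pass the filter on low counts. In the wider list of 11 glycine-rich relatives with an RNA recognition motif, which holds the hnRNP A and D families, 0 of the 10 tested had an unadjusted p under 0.05 in edgeR's quasi-likelihood test. Over all genes tested, 3.4% were higher and 3.07% lower by this rule. A count of 0 in so short a list is not read as a result, here or in the lists below. The log2 fold changes of these 10 relatives ran from -0.71 to 0.39, with a median of 0.07 against 0.01 over all genes. Hnrnpa2b1 had a value of -0.24, Hnrnpa3 -0.24, Hnrnpab 0.06 and Hnrnpa0 0.02.

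The cold shock domain proteins, an unrelated fold that also binds RNA and gives bacterial cold shock proteins their name, held 0 genes under an unadjusted p of 0.05 among 5 tested. Over all genes the shares were 3.4% higher and 3.07% lower. Csdc2 had 78.2, 60.1 and 55.5 CPM against 44.9, 47.7 and 53.6 CPM, with no overlap of the groups but without passing the test (log2 fold change 0.40, standard error 0.198). The log2 fold change was 0.24 for Carhsp1, 0.08 for Ybx1 and -0.00 for Ybx3. DESeq2 and limma voom also gave 0 genes for this list, as they did for the glycine-rich relatives and for stress granule and brown fat genes. Ybx2 and Lin28b had few counts and were not tested, and Lin28a had 0 counts in all libraries.

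The transcripts of the kinases and SR proteins of the splicing route that sets the level of Cirbp and Rbm3 did not pass the test. Of 20 tested, 0 had an unadjusted p under 0.05 in either direction with edgeR or DESeq2 and 1 was lower with limma voom. Over all genes tested, edgeR called 3.4% higher and 3.07% lower. Of the log2 fold changes of the 20, 11 were above 0 and 9 below, from -0.43 to 0.37, with a median of 0.05. Without overlap of the groups, 1 lay higher and 1 lower, beside 5.65% and 5.88% over all genes. Clk1, the kinase whose activity rises as temperature falls, had 38.4 ± 21.5 against 44.2 ± 3.07 CPM (log2 fold change -0.20, standard error 0.305) and varied from 20.6 to 62.2 CPM among the miRNA-26b-/- libraries. The log2 fold change was -0.08 for Clk2, -0.01 for Clk3 and -0.18 for Clk4. Kinase activity was not measured, and transcript levels do not report it. Of the abundant members, Srsf1 had 0.25, Srsf2 0.12, Srsf6 0.37 and Hnrnph1, an hnRNP that the list also holds, -0.03. The count of genes past the test was 2 without M2626 (both lower), 2 without M2628 and 3 without M2629 (all higher). Over all genes it was 904, 1692 and 838 in the same order, against 1036 with all libraries.

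The list of regulators, partners and RNA targets of both proteins had 1 gene higher and 0 lower at an unadjusted p under 0.05 among 13 tested, beside 3.4% of all genes tested called higher and 3.07% called lower by this rule. Txn1, the thioredoxin whose transcript is a described target of Cirbp, had 154.9, 137.9 and 115.4 CPM in the miRNA-26b-/- and 114.8, 94.5 and 98.1 CPM in the miRNA-26b+/+ libraries. All miRNA-26b-/- libraries lay above the others, although M2628 and M2629 differed by less than 1 CPM. The log2 fold change was 0.41 with a standard error of 0.167, and its adjusted p was 0.736 in edgeR's quasi-likelihood test. Without any one of M2626, M2627, M2630 or M2631 no gene of the list passed, and without M2628 there were 1 higher and 3 lower. Over all genes, 1692 of 15654 passed without M2628 (788 higher and 904 lower), against 1036 of 16017 with all libraries. Sp1, the transcription factor that acts on the mild cold response element, had a log2 fold change of 0.17 (standard error 0.155). Clock, the circadian transcription factor whose transcript Cirbp binds, had -0.21, Tnpo1, which carries Cirbp into the nucleus, 0.09, and Rtn3, whose translation Rbm3 raises in neurons, -0.09. Tlr4, the receptor of extracellular Cirbp, had -0.19, and its partner Ly96 -1.07 with a standard error of 0.654.

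The transcripts of heat shock response genes are known to change with temperature in the direction opposite to Cirbp and Rbm3. Of 23 tested, 12 were lower and 0 higher at an unadjusted p under 0.05, beside 3.07% lower over all genes, and 13 lay lower without overlap, beside 5.88%. The median log2 fold change of the list was -0.40, against 0.01 over all genes, with 18 values below 0 and 5 above. No gene of the list passed after adjustment in edgeR's test, where the adjusted p ran from 0.0822 for Hspb1 to 0.756 for Ahsa1 among the 12. By the same rule 1 of all genes tested passed (0.00624%), which is none of those described here. After adjustment, 6 genes of the list were lower with DESeq2 and 1 with limma voom, and with edgeR 4 were lower without M2628 (Hspa4l, Hspa8, Hspb1 and Stip1). Over all genes, 29 of 15906 were lower after adjustment with DESeq2, 1 of 16017 with limma voom and 67 of 15654 without M2628. The list was written with these results already known, and the study itself measured Hspb1, so its count is not independent evidence of a direction.

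Hspa4l, an Hsp110 family chaperone, had 40.0, 41.1 and 37.4 CPM in the miRNA-26b-/- and 82.4, 84.9 and 76.7 CPM in the miRNA-26b+/+ libraries (log2 fold change -1.04, standard error 0.180). Stip1, the adaptor that links Hsp70 and Hsp90, had 108.6, 107.9 and 112.9 CPM against 180.0, 194.1 and 181.5 CPM (log2 fold change -0.75, standard error 0.144). Hsp90ab1, the constitutive cytosolic Hsp90, had 1220.4, 1033 and 1230.4 CPM against 1623, 1655 and 1673 CPM (log2 fold change -0.51, standard error 0.121). For these genes the groups were well apart, and M2627, highest of all in Cirbp, was lowest of all in Hsp90ab1. Others of the 12 were the Hsp70 proteins and their kin Hspa8 (-0.66) and Hsph1 (-0.64), Hsp90aa1 (-0.59), the mitochondrial chaperonin Hspd1 (-0.66) and the small heat shock protein Hspb1 (-0.93). The collagen chaperone Serpinh1 (-0.28), the cochaperones Ahsa1 (-0.35), Fkbp4 (-0.36) and Bag3 (-0.40) completed them, each value being a log2 fold change.

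The inducible Hsp70 genes Hspa1a and Hspa1b did not pass. Hspa1a had 54.1, 46.3 and 130.8 CPM against 216.4, 108.4 and 52.3 CPM, and Hspa1b 45.3, 46.9 and 187.1 CPM against 265.2, 117.4 and 51.7 CPM, so the groups overlapped for both. Hspa1a and Hspa1b are near-identical copies, and reads that map to both were not counted, which lowers both counts by an amount not known here. Hsf1, the main transcription factor of the response, had a log2 fold change of 0.16 and Hsf2 0.59, neither past the test. Without M2627 the number of genes lower at an unadjusted p under 0.05 was 8, and without both M2627 and M2630, which stood apart in other markers, it was also 8.

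**Figure D3:**
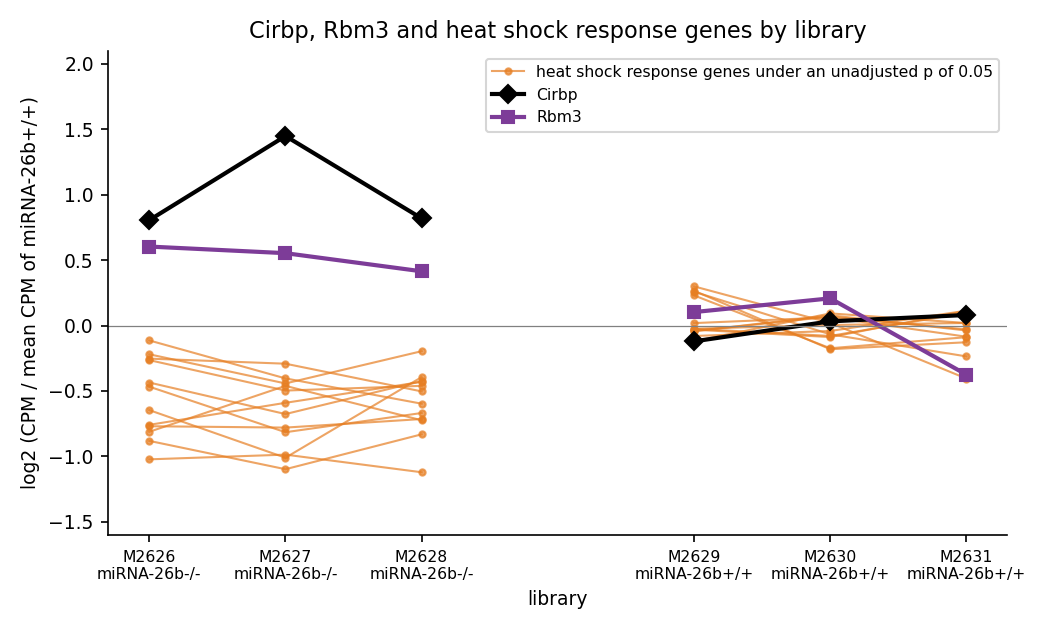
Log2 of the CPM in each library over the mean CPM of the 3 miRNA-26b+/+ libraries for Cirbp (black), Rbm3 (purple) and the 12 heat shock response genes with an unadjusted p under 0.05 (orange, genes chosen by the difference shown). Lines link the values of the same gene, and the libraries have no order. In the miRNA-26b-/- libraries both black and purple points lie above 0 and all orange points below 0.

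The genes whose levels were most like those of Cirbp over the 6 libraries were ranked by Pearson's r of log2 CPM among 11675 genes with a mean of at least 5 CPM. With 6 points in groups that do not overlap, these values follow the difference between the groups to a large part, and 60 genes had an r above 0.9 and 111 below -0.9. Highest were Ptprn, a protein of secretory granules (r = 0.983), Tmod2, an actin-capping tropomodulin (0.982), Adam23, a surface protein of neurons (0.982), Ciao1, of iron-sulfur cluster assembly (0.977), and the copper transporter Slc31a1 (0.972). Ptprn had 4.33, 18.0 and 5.17 CPM in the miRNA-26b-/- and 1.53, 1.64 and 2.08 CPM in the miRNA-26b+/+ libraries, and shared the high value in M2627. Lowest were Rbm20, a splicing regulator of muscle (r = -0.997), Mybbp1a, a nucleolar protein (-0.993), Ereg, a ligand of the EGF receptor (-0.989), and Ppid and Hsp90ab1 (-0.988 and -0.984, respectively). Ppid, a cochaperone of Hsp90 that was not on the heat shock list, had 28.6, 17.7 and 26.3 CPM against 44.5, 47.7 and 42.0 CPM.

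Rbm3 gave other genes by the same rule. Highest were the phospholipase Hrasls (r = 0.994), the ATP-gated channel P2rx5 (0.989), Sf3b5 of the spliceosome (0.982), Rpp21 of ribonuclease P (0.982) and Tulp1 (0.981). Lowest were Sec24d of the COPII coat (r = -0.989), BC037039 (-0.984), the vitamin K-dependent carboxylase Ggcx (-0.984), the O-fucosyltransferase Pofut1 (-0.983) and Irf9 of the interferon response (-0.983). P2rx5 had 48.0, 44.3 and 42.2 CPM in the miRNA-26b-/- and 35.8, 36.1 and 28.4 CPM in the miRNA-26b+/+ libraries, low in M2631 as Rbm3 was. Above 0.9 there were 147 genes and below -0.9 there were 108. Over the heat shock genes r ran from -0.88 (Serpinh1) to 0.65 (Hspa4) with Rbm3, and from -0.98 (Hsp90ab1) to 0.77 (Hsf2) with Cirbp.

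Other processes tied to cold or to the 2 proteins were compared by the same counts. Stress granules are the cytoplasmic bodies in which Cirbp gathers under stress. Of their 11 proteins tested, 0 had an unadjusted p under 0.05, beside 3.4% higher and 3.07% lower over all genes. The median log2 fold change of the 11 was -0.13, with Ddx3x at -0.13, Pabpc1 at -0.15, Caprin1 at -0.18 and G3bp2 at -0.08. Of the 18 circadian clock genes tested, 1 was higher and 0 lower, which is 5.56% of the list, beside 3.4% higher and 3.07% lower over all genes. This was Tef, a PAR bZIP transcription factor, with 106.1, 83.9 and 81.9 CPM against 56.8, 75.0 and 64.6 CPM (log2 fold change 0.47, standard error 0.184, adjusted p = 0.736 from edgeR). Nr1d1, a repressor of the clock, had 0.24 and Rora, its activating counterpart, -0.19, and neither passed. Without M2626 or without M2631 no clock gene passed. Without M2627 or without M2629, 1 was higher and 1 lower, and without M2628, 2 were higher and 2 lower. Leaving out M2628 also raised the calls over all genes, from 1036 to 1692.

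Of the 13 hypoxia response genes tested, 2 were lower and 0 higher at an unadjusted p under 0.05, beside 3.07% and 3.4% over all genes. Epas1, the hypoxia-inducible factor of vascular cells, had 233.1, 209.5 and 300.5 CPM against 316.2, 385.6 and 319.5 CPM (log2 fold change -0.46, standard error 0.159). P4ha1, a collagen prolyl hydroxylase, had 136.7, 109.1 and 179.7 CPM against 238.9, 193.8 and 212.6 CPM (log2 fold change -0.60, standard error 0.180). The lactate dehydrogenase gene Ldha had a log2 fold change of 0.01 and the stress gene Ndrg1 -0.06. Without M2627 or without M2630 the count was 1, and Epas1 did not pass while P4ha1 did. Without M2628, P4ha1 was lower also after adjustment (edgeR), where 67 of 15654 genes tested were lower.

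Brown fat genes, which respond to cold in living animals and whose tissue surrounds the thoracic aorta, varied widely within both genotypes. Of 11 tested, 0 had an unadjusted p under 0.05, beside 3.4% higher and 3.07% lower over all genes. Ucp1, the uncoupling protein of brown fat, had 90.6, 213.2 and 33.1 CPM in the miRNA-26b-/- and 88.9, 114.8 and 29.6 CPM in the miRNA-26b+/+ libraries. It was highest in M2627, the library highest in Cirbp, and lowest in M2631 and M2628. Its log2 fold change was 0.53 with a standard error of 0.492. Cidea had a log2 fold change of -0.08, Dio2 -0.15 and Prdm16 -0.01. The median of the list was 0.48, against 0.01 over all genes, with 6 values above 0 and 5 below. Without M2628 the count was 3, and without M2626 or M2627 it was 1. Over all genes these counts were 1692, 904 and 898, against 1036 with all libraries. Of the 15 immediate early genes tested, which mark handling and acute stress, 2 were lower and 0 higher, beside 3.07% and 3.4% over all genes. They were Junb (-0.80, standard error 0.289) and Egr2 (-1.39, standard error 0.619). The abundant Dusp1 (0.06), Egr1 (-0.22), Jun (0.14) and Btg2 (0.04) did not pass, and both calls were lost without M2626 and without M2627. Without M2630, 1 gene passed (higher), and without M2628 or without M2631, 4 were lower. Over all genes 1692 passed without M2628 and 686 without M2631, against 1036 with all libraries.

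**Figure D4:**
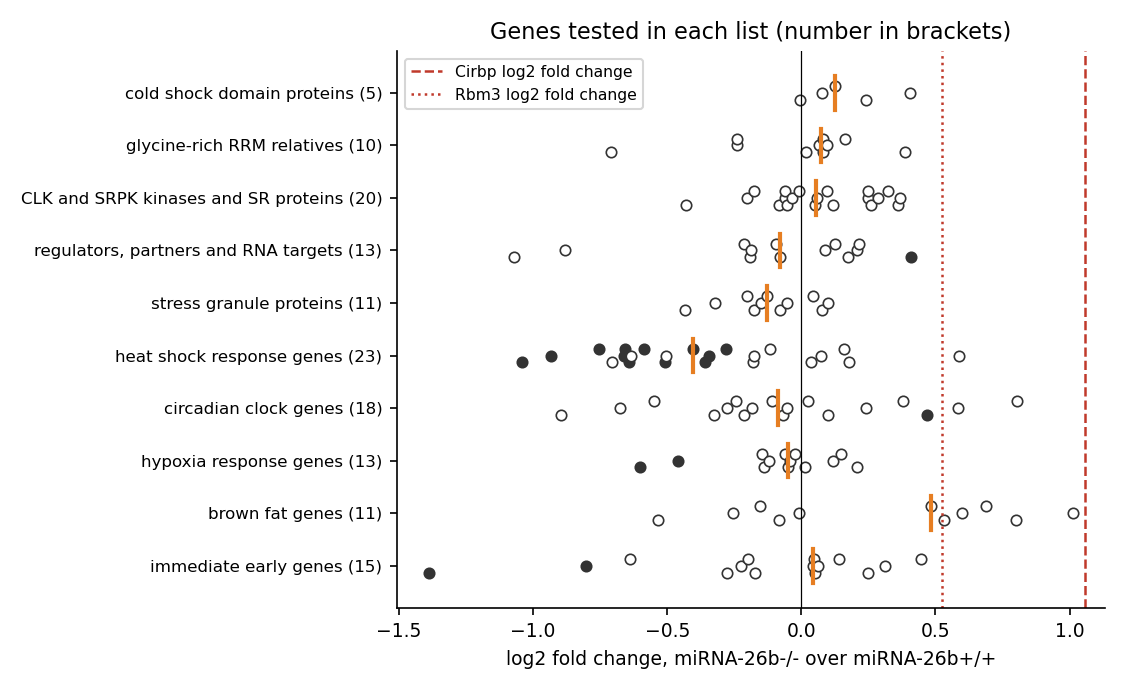
Log2 fold changes of the tested genes of the 10 process lists, without the cell type markers (horizontal), with filled points for an unadjusted p under 0.05 in edgeR's test, open points for the others, orange bars for the list medians, and red lines at the values of Cirbp (dashed, 1.06) and Rbm3 (dotted, 0.53). The heat shock response genes hold 12 filled points, all below 0, and no other of these 10 lists holds more than 2.

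The cell types of the vessel were not the same in all libraries, and Cirbp and Rbm3 were set beside their markers. The 8 endothelial markers summed to 471.9 and 504.0 CPM in M2626 and M2627, against 1792 CPM in M2628 and 1248 to 1719 CPM in the miRNA-26b+/+ mice. Cirbp was 30.9 CPM in M2626, which was low in these markers, and 31.2 CPM in M2628, which was high. Sympathetic neuron markers summed to 222.5 CPM in M2627 and 49.1 CPM in M2630, against at most 22.7 CPM elsewhere, and cardiac muscle markers to 318.4 and 286.2 CPM in the same 2 libraries. Th and Dbh, the enzymes that define noradrenergic neurons, were at 0 in the other 4 libraries. M2627 was the highest of the 6 in Cirbp, while M2630 was in the middle of its group.

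Schwann cell and skeletal muscle markers were also compared. Of the 6 Schwann cell markers tested, 5 were higher at an unadjusted p under 0.05 and 0 lower, beside 3.4% higher and 3.07% lower over all genes, and the list of 7 summed to 316.5 to 469.0 CPM in the miRNA-26b-/- and 223.1 to 285.2 CPM in the miRNA-26b+/+ mice. Of the 6 skeletal muscle markers, 5 were higher by the same rule and 0 lower. Their sum was 30.6, 88.2 and 8.39 CPM against 6.49, 11.2 and 3.24 CPM, so the groups overlapped, with M2628 below M2630. Mylpf and Myh4 were at 0 in every miRNA-26b+/+ library, and Myh4, Ckm and Tnni2 were at 0 in M2628. Mylpf and Myh4 therefore passed the filter on low counts only through miRNA-26b-/- libraries and could only come out higher. The count of 5 is for this reason not read as a result. After adjustment 0 genes of either list passed in edgeR's test. The part of these cells in the levels of Cirbp and Rbm3 was not tested. Without both M2627 and M2630 the log2 fold change was 0.83 for Cirbp (standard error 0.346) and 0.63 for Rbm3 (standard error 0.333), with 2 mice left in each group.

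**Figure D5:**
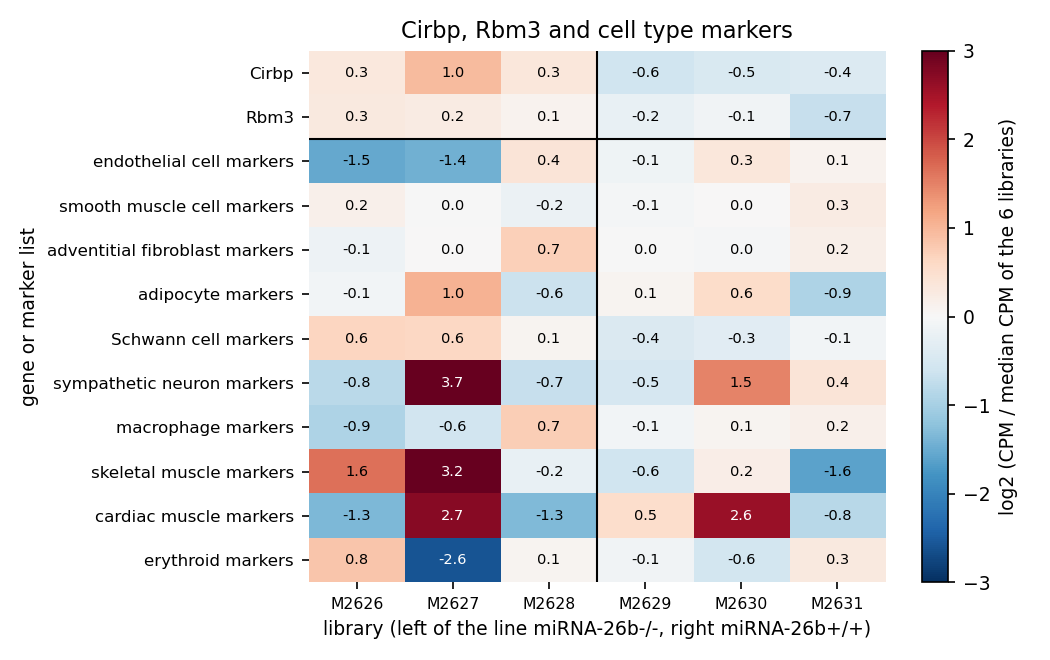
Log2 of the level in each library over the median of the 6 libraries, for Cirbp and Rbm3 (CPM, top) and for the summed CPM of 10 marker lists, with miRNA-26b-/- left of the vertical line. The colour scale ends at 3 in both directions, and the numbers give the values. M2627 and M2630 stand out in sympathetic neuron and cardiac muscle markers, and M2626 and M2627 are low in endothelial markers.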

How the data were processed

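Aortic RNA of 6 mice (3 miRNA-26b-/-, 3 miRNA-26b+/+) was sequenced from TruSeq RNA v2 libraries, which do not mark strand. Reads were aligned by the authors to mm10 (STAR). The authors counted them per gene symbol with featureCounts 1.6.4 on GENCODE M21, without strand, and deposited the raw counts, each read over several genes being counted for each. The methods of the study name a later annotation release. A second deposited table holds log2 CPM values, which equal TMM-scaled log2 CPM of the same counts, beside the authors' own comparison of the groups (fold changes and p-values, not used here).

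The filter asked for 2 counts in sum and for over 1 CPM in 2 or more libraries. The groups were compared with edgeR 4.0.16 (quasi-likelihood test, R 4.3.3, TMM, prior count 0.125), with Benjamini-Hochberg adjustment over all genes tested. The standard error of a log2 fold change is the one implied by the F statistic of this test. No p-value of Cirbp or Rbm3 is given. Both genes, the gene lists and the rules for named genes were chosen with earlier results of these data known. Named genes were, for each list, those at an unadjusted p under 0.05 and the 4 of highest mean CPM (all of a list of 8 or fewer, except 1 gene that is not reported here), 5 genes at each end of the likeness ranking, the 10 nearest protein relatives and genes with overlapping exons. Clk1 to Clk4, Tlr4, Ly96, Tnpo1, Hspa1a, Hspa1b, Hsf1, Hsf2, Hspa4, the pseudogene Rbm3-ps and the genes named for being at 0 were added after their values were seen. Protein identities come from translated GENCODE M21 coding sequences (Biopython 1.88, BLAST 2.17.0), and promoters and miRNAs from RefSeq tables for GRCm38.p6. Alternatives were library size and upper quartile scaling, DESeq2 1.42.0, limma voom 3.58.1, 2 filters, a prior count of 2, the deposited log2 CPM and leaving out libraries.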

Additional observations from a re-analysis of the deposited data

How the results depend on the processing

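Cirbp and Rbm3 were higher in miRNA-26b-/- mice under every alternative run. The log2 fold change ran from 0.81 to 1.17 for Cirbp and from 0.36 to 0.65 for Rbm3 with each library left out, and the difference of the log2 ratio from 0.28 to 0.70. With the other settings on all 6 libraries Cirbp stayed between 1.02 and 1.07 and Rbm3 between 0.52 and 0.55. Without M2627 and M2630 (added after seeing the data) the ratio differed by 0.19. The number of all genes at an unadjusted p under 0.05 was 1036, ran from 686 to 1692 with each library left out, and was 607 without M2627 and M2630. After adjustment 57 genes passed with DESeq2, 3 with limma voom, 0 without M2627 and M2630, and 0 to 82 with each library left out. With each library left out, the genes called per list ran from 8 to 13 for heat shock, 0 to 1 for cold shock domain proteins, 0 to 1 for glycine-rich relatives, 0 to 3 for kinases and SR proteins, 0 to 4 for regulators, 0 to 4 for clock genes, 1 to 2 for hypoxia, 0 to 3 for brown fat and 0 to 4 for immediate early genes, with 0 throughout for stress granule proteins. Kinases and SR proteins had 1 with limma voom and 1 with filterByExpr, and immediate early genes 1 with DESeq2, 1 with limma voom and 1 without M2627 and M2630, where regulators had 0 and hypoxia 1. The cause of these changes was not tested. No paired analysis was possible because the libraries come from different mice and nothing ties a mouse of one genotype to a mouse of the other. Intervals cover counting error only, and 3 mice per group limit the precision.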
